A study of Arabidopsis thaliana with 31 samples.

Results

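The photoreceptor, HY5 and PIF genes of Arabidopsis were examined in a poly(A)-seq library: PHYA, PHYB, CRY1, CRY2, PHOT1, PHOT2, HY5, PIF3, PIF4 and PIF5. Members were taken by gene identifier, and a read counted for a gene when the deposited alignment named one of its transcripts. They are 10 of the 19829 genes with a read, and they held 2328 of 2786281 reads. Of the 31 samples of the series, 1 was used here, wild-type Col, from whole 2-week-old seedlings raised on Murashige and Skoog plates with sucrose, at 23 °C and in long days (16 h light, 8 h dark). The time of day of the harvest is not given in the sources used here. Samples of the other assays of the series were not used here. There was thus neither a second group nor a replicate, and no test between conditions was made. Every interval below is a 95% interval that covers counting error only, with each read or fragment taken as independent.

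In poly(A)-seq an RNA adaptor is joined to the free end of each tail, so that a read marks the base at which the transcript ends and the tail begins. A read stands for a tail whatever the length of the transcript, so read numbers of different genes were compared without dividing by length. By the paper's methods, only reads in which the 3′ adaptor could be recognized were kept. A tail was thus counted only where the read reached its end. Total RNA had been partially digested with RNase T1, which cuts after G, and the purified PCR products were of limited size. How the adaptor filter, digestion, size selection and amplification acted on each gene was not tested. In whole seedlings, fewer cells that express a gene and less RNA per cell cannot be told apart. The library held reads of RBCS1A (44235), the small subunit of Rubisco of green tissue, and of PYK10 (2556), a β-glucosidase abundant in roots, both chosen after their values were known.

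Plants sense light through families of photoreceptors. Phytochromes absorb red and far-red light, cryptochromes absorb blue light and control seedling growth and flowering, and phototropins are blue-light-activated kinases that bend stems towards light and move chloroplasts. HY5 is a bZIP transcription factor that promotes development in light and is degraded in darkness through the ubiquitin ligase COP1. The PIFs are bHLH transcription factors that promote elongation growth and are bound by phytochromes and marked for degradation in light. The 3′-ends of plant mRNAs are often spread over several positions, and the hexamer AATAAA that directs cleavage in animals is found before only a part of plant 3′-ends.

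The reference sequence before the most used 3′-end of each gene is given because the genes differed in the hexamer it holds. The 30 nt below end at that base and are read 5′ to 3′ from the TAIR10.1 assembly, for 8 of the 9 members with at least 20 sense reads. Capitals mark the AATAAA or, failing that, the single-base variant of it whose start lay nearest to 20 nt before the end.
PHYA (chr1:3095256-3095285, minus strand): tcaaaataagtAATATAggagaaatgagct
PHYB (chr2:8144397-8144426, plus strand): agagcatattaatcgatgaccaatcctttt
CRY1 (chr4:5727177-5727206, plus strand): agtcaaacagatgccaattcttaatcttat
CRY2 (chr1:1185560-1185589, minus strand): tggctatgAATAAAatatacatatttgttt
PHOT2 (chr5:23530082-23530111, plus strand): tgcttaaaTATAAAcggctcttttcatgtt
HY5 (chr5:3593409-3593438, minus strand): cttaattgaaacataatgttgttttataac
PIF4 (chr2:17888919-17888948, plus strand): tatagAGTAAAcgtgcaacttcattacgtt
PIF5 (chr3:21828045-21828074, minus strand): aagttagtctcatacttataacttattttt

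CRY2 carried AATAAA, which began 21 nt before the end. A search on the strand of the transcript, for hexamers that began from 10 to 35 nt before the end, found AATAAA before the most used end of 2 of 9 members, against 12.3% of the 9365 genes with at least 20 sense reads. AATAAA or a variant with a single changed base stood before 6 of 9, against 49.6% of all genes. The variants were AATATA in PHYA, TATAAA in PHOT2, AGTAAA in PIF4 and AATAAG in PIF5, the last beginning 32 nt before the end and therefore outside the bases shown. PHYB, CRY1 and HY5 had none in this window.

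The 10 genes spanned from 10 to 1326 reads. PIF5 had the most, 1326 reads (exact Poisson interval, 1256 to 1399), and ranked 274 among all genes. CRY1 followed with 342 reads (307 to 380) and PHOT2 with 240 (211 to 272). PHYA had 103 reads (84.1 to 125), PHOT1 78 (61.7 to 97.3), CRY2 75 (59.0 to 94.0) and PHYB 69 (53.7 to 87.3). Between neighbours from PHYA down to HY5, the intervals of the ratios of reads all held 1, so adjacent genes in that stretch did not differ beyond counting error. PIF4 had 48 reads (35.4 to 63.6), HY5 37 (26.1 to 51.0) and PIF3 10 (4.80 to 18.4). In reads, HY5 exceeded PIF3 by 3.70 times (1.80 to 8.34). At least 20 reads were found for 9 of 10 members, against 51.2% of all genes with a read, and their median was 76.5 reads, against 20 over all genes.

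Many of these reads repeated the same start and end on the genome. The 2328 reads came from 594 distinct fragments. Reads with the same start and end count as the same fragment, also where they came from different tails. Fragments can thus undercount a gene whose reads gather at few ends, such as PIF5, and the extent of this was not tested. Counted as fragments, CRY1 led with 169 (144 to 196), ahead of PIF5 with 123 (102 to 147), a ratio of 1.37 (1.08 to 1.75). PHOT2 had 100 fragments, PHYA 51, PHOT1 36, PHYB and CRY2 31 each, PIF4 25, HY5 19 and PIF3 9. PIF5 therefore held 57.0% of the members' reads and 20.7% of their fragments. HY5 over PIF3 gave 2.11 (0.910 to 5.30) in fragments, an interval that held 1, unlike that of their reads.

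**Figure D1:**
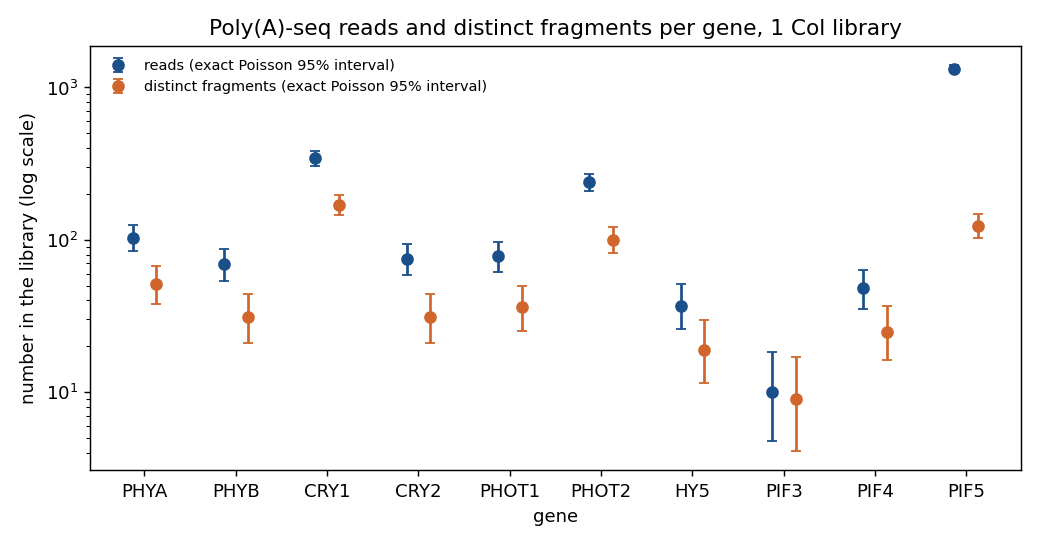
Reads (blue) and distinct fragments (orange) of each gene in the Col library on a log axis, with exact Poisson 95% intervals. PIF5 stands highest in reads with 1326, whereas CRY1 stands highest in fragments with 169.

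Within each family, members differed in number. Of the phytochromes, PHYA, the receptor of far-red light, had more reads than PHYB, the main receptor of red light in seedlings (ratio, 1.49; 1.09 to 2.06). CRY1, which limits hypocotyl growth in blue light, exceeded CRY2, which promotes flowering, by 4.56 times (3.54 to 5.94). PHOT2, which moves chloroplasts away from strong light, exceeded PHOT1, the more sensitive receptor of phototropism, by 3.08 times (2.37 to 4.03). For PIF5 over PIF4, both promoters of elongation, the ratio was 27.6 (20.7 to 37.7) in reads and 4.92 (3.18 to 7.90) in fragments. PIF4 over PIF3 gave 4.80 (2.40 to 10.6) in reads and 2.78 (1.25 to 6.76) in fragments. In fragments, the first 3 pairs kept their order and the intervals stayed above 1.

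Almost every end lay in a 3′-UTR. Of the 2320 sense reads of the 10 genes, 2319 ended there (99.96%; Clopper-Pearson interval, 99.8 to 100%), against 98.2% over all genes. The remaining read was of PIF5 and ended in its 5′-UTR. No member read ended in coding sequence, which at this depth allows a share of up to 0.129%. Distances are counted in nt past the most downstream annotated stop codon of the gene. The median end lay 299 nt past it in CRY1, 275 in PHYB, 200 in PHYA, 186 in PHOT1, 169 in HY5, 161 in PIF4, 159 in CRY2, 144 in PIF5, 118 in PHOT2 and 107 in PIF3. Over the 9 members with at least 20 sense reads the median of these was 169 nt, against 177 nt over all genes (quartiles, 136 and 226 nt). Ends beyond the longest annotated transcript could not be listed, because the alignments were given within transcripts.

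**Figure D2:**
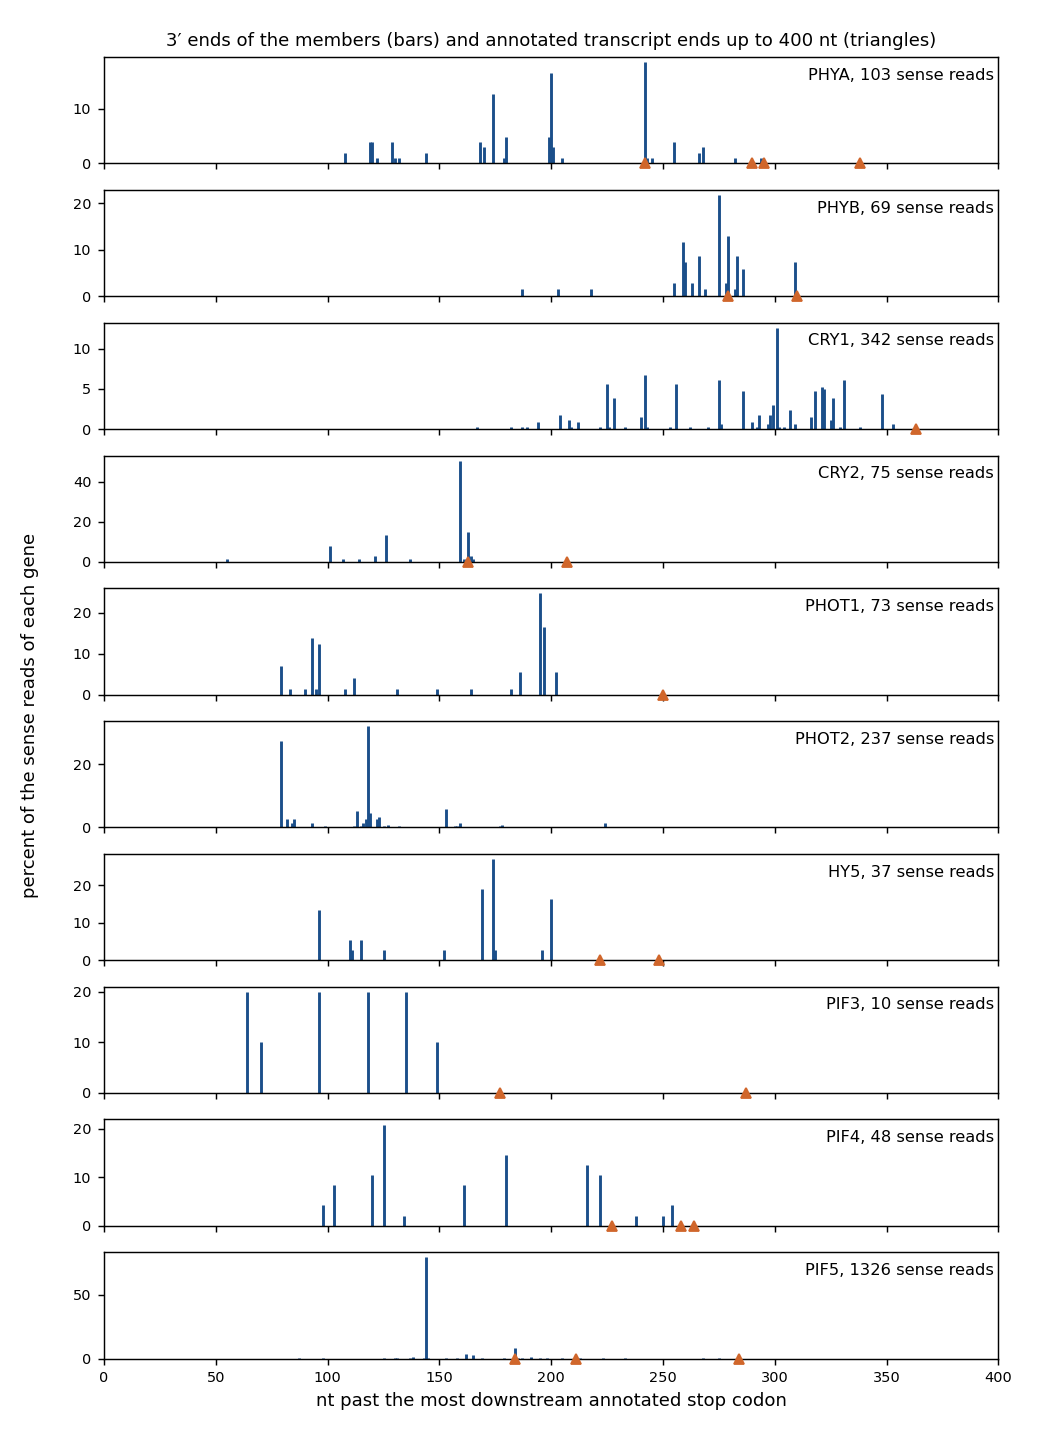
Percent of each gene's sense reads (vertical axis) that ended at each nt past the most downstream stop codon (horizontal axis), with annotated transcript ends up to 400 nt as orange triangles. PIF5 has 79.4% of its reads at a single base, whereas no base of CRY1 holds more than 12.6%. The farthest annotated end of PHOT2, 3118 nt past the stop codon, lies outside the axis, and transcripts with no read named for them have no triangle.

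PHYA (AT1G09570; chromosome 1, 3095160 to 3100819, minus strand) used 25 ends between 108 and 294 nt past its stop codon. With ends joined when they lay within 24 nt of each other, they formed 2 sites with 68.9% (59.1 to 77.7%) and 31.1% (22.3 to 40.9%) of the reads. The most used base, with 19 of 103 reads, was the annotated end of the second PHYA transcript, 242 nt past the stop codon, and 17 reads ended at 200 nt and 13 at 174 nt. PHYB (AT2G18790; chromosome 2, 8139756 to 8144461, plus strand) was narrower. Of its 69 reads, 95.7% (87.8 to 99.1%) ended from 255 to 309 nt, most often at 275 nt with 15 reads. Its second annotated transcript has a stop codon 502 nt upstream, and because the transcripts share 3′ sequence most reads do not tell which of them was tailed. Mapping quality reached 10 or more for 10 PHYB reads, which all ended past the annotated end of that second transcript, 279 nt past the stop codon, where only the first transcript continues.

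CRY1 (AT4G08920; chromosome 4, 5723651 to 5727268, plus strand) spread its reads over more bases than any other member. The number of bases can rise with the number of reads, and only PIF5 had more reads than CRY1. By interquartile range, the ends of CRY1 (67.25 nt) were narrower than those of PHOT1 (99 nt), PIF4 (91 nt) and PHYA (70 nt). The 342 CRY1 reads ended at 46 bases between 167 and 353 nt, and the most used, at 301 nt, held 43 reads (12.6%; 9.25 to 16.6%). That share lay at percentile 0.694 of the 9365 genes, where the median was 34.5%. CRY1 has a single annotated transcript, and 339 of its reads had a mapping quality of 10 or more. CRY2 (AT1G04400; chromosome 1, 1185512 to 1188696, minus strand) was the opposite in this family. Of its 75 reads, 38 ended at 159 nt (50.7%; 38.9 to 62.4%), and 11 more ended at 163 nt, the annotated end of its second transcript. A most used base with at least 50% of the reads was found in 2 of 9 members, CRY2 and PIF5, against 23.9% of all genes. AATAAA lay before 53 of the 75 CRY2 ends (70.7%; 59.0 to 80.6%) and before 0 of the 342 CRY1 ends, which allows a share of up to 0.877%.

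PHOT1 (AT3G45780; chromosome 3, 16816721 to 16824210, plus strand) ended mainly in 2 clusters, which the 24-nt rule joined into 1 site from 79 to 202 nt. In the distal one, 18 reads ended at 195 nt and 12 at 197 nt, and in the proximal one 10 ended at 93 nt and 9 at 96 nt. The interquartile range of its ends was 99 nt, at percentile 92.6 of all genes. Besides its 73 sense reads, 5 reads were antisense, and no other PHOT1 read reached a mapping quality of 10.

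PHOT2 (AT5G58140; chromosome 5, 23523825 to 23533111, plus strand) differed most from its annotation. Its farthest annotated end lies 3118 nt past the stop codon, whereas all 237 sense reads ended between 79 and 224 nt past it. The ends peaked at 118 nt with 76 reads (32.1%; 26.2 to 38.4%) and at 79 nt with 65 reads. AATAAA lay before 102 of these ends (43.0%; 36.6 to 49.6%) and AATAAA or a single-base variant before 230 (97.0%; 94.0 to 98.8%). The most used end was 3000 nt short of the farthest annotated one, that of the 3 transcripts for which reads were named. The other 4 annotated PHOT2 transcripts, 3 of which end at the stop codon and 1 upstream of it, had no read named for them. A distance of at least 1000 nt was found in 1 of 9 members, against 1.92% of all genes. A minus-strand gene, AT5G58150 (chromosome 5, 23530081 to 23532840), lies wholly inside this 3′-UTR, and its annotated end is 88 nt past the PHOT2 stop codon. Of the PHOT2 reads, 157 (66.2%) ended at or past that end, opposite to AT5G58150. The 10 reads named for AT5G58150 were all antisense to it and ended within PHOT2, and none was sense. The antisense reads of PHOT2 ended 38 nt (2 reads) and 60 nt (1 read) past its stop codon, just downstream of AT5G58150 on the strand of that gene. With ends assigned by position, PHOT2 would gain those 10 reads and lose its 3 antisense ones.

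HY5 (AT5G11260; chromosome 5, 3593335 to 3595073, minus strand) ended in 2 sites, 26 reads from 152 to 200 nt (70.3%; 53.0 to 84.1%) and 11 reads from 96 to 125 nt. The most used base, at 174 nt, had 10 reads, and 7 ended at 169 nt and 6 at 200 nt. Of the 10 reference bases after the 174-nt end, 7 were A. Such an A-rich stretch, at least 6 A in a row or 7 in all within 10 nt, followed the most used end of 1 of 9 members, HY5, against 8.52% of all genes. It followed 17 of 37 HY5 reads (45.9%; 29.5 to 63.1%), against 6.13% of all genes' reads. Over all 10 members the share was 1.55% (3.42% without PIF5), and HY5 gave 17 of its 36 reads. Whether these stretches took part in the selection of fragments on oligo(dT) beads was not tested. The tail was removed as a run of A in which a few G were allowed, so where the reference goes on with A, or with A broken by G, the true end can lie further downstream. The next reference base was A for 88.4% of the members' reads (74.7% without PIF5), against 80.5% of all reads, so the direction turned on PIF5, of whose reads 98.6% preceded an A.

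PIF3 (AT1G09530; chromosome 1, 3075768 to 3079654, plus strand) had too few reads for a description of its sites. Its 10 reads ended at 6 bases from 64 to 149 nt, with at most 2 reads at any base. PIF4 (AT2G43010; chromosome 2, 17886101 to 17889087, plus strand) used 3 sites. These were 22 reads from 98 to 134 nt (45.8%; 31.4 to 60.8%), 11 from 161 to 180 nt (22.9%; 12.0 to 37.3%) and 15 from 216 to 254 nt (31.3%; 18.7 to 46.3%). A site with at least 90% of the reads was found in 6 of 9 members, against 59.6% of all genes, and PIF4, PHYA and HY5 were the 3 without one. With ends joined within 10 nt in place of 24 nt, 2 of 9 members had such a site, CRY1 and PIF5, against 20% of all genes. Such a site can be a wide chain of neighbouring ends, and under the 24-nt rule that of CRY1 ran from 167 to 353 nt. Of the CRY1 reads, 18.4% lay within 5 nt of the most used base, against 79.9% of those of PIF5. The fourth PIF4 transcript has its stop codon 216 nt upstream of the others, so that the median distance became 216 nt in place of 161 nt when counted in the transcript each read was named for.

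PIF5 (AT3G59060; chromosome 3, 21827905 to 21830837, minus strand) had its reads gathered at a single base to a greater degree than any other member. Of its 1326 reads, 1053 (79.4%; 77.1 to 81.6%) ended 144 nt past the stop codon, and the next most used end, at 184 nt, had 106 reads and was the annotated end of the first transcript. The reads at 144 nt came from 50 of the 123 fragments (40.7%), 21.1 reads per fragment, against 3.74 at the other ends. The 4 most frequent fragments, of 23, 19, 30 and 25 nt and with 257, 154, 105 and 100 reads, made up 46.5% of the reads of the gene. At least 10 reads per fragment were found in 1 of 9 members, PIF5 with 10.8, against 0.694% of all genes, and the other 8 had from 1.92 to 2.42. The mapped part of PIF5 reads was also short, with a median of 30 nt, against 58 nt over all reads. The end at 144 nt thus rested on many start positions, whereas the number of reads there rested largely on a few repeated short fragments. The part of amplification and size selection in this was not tested.

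**Figure D3:**
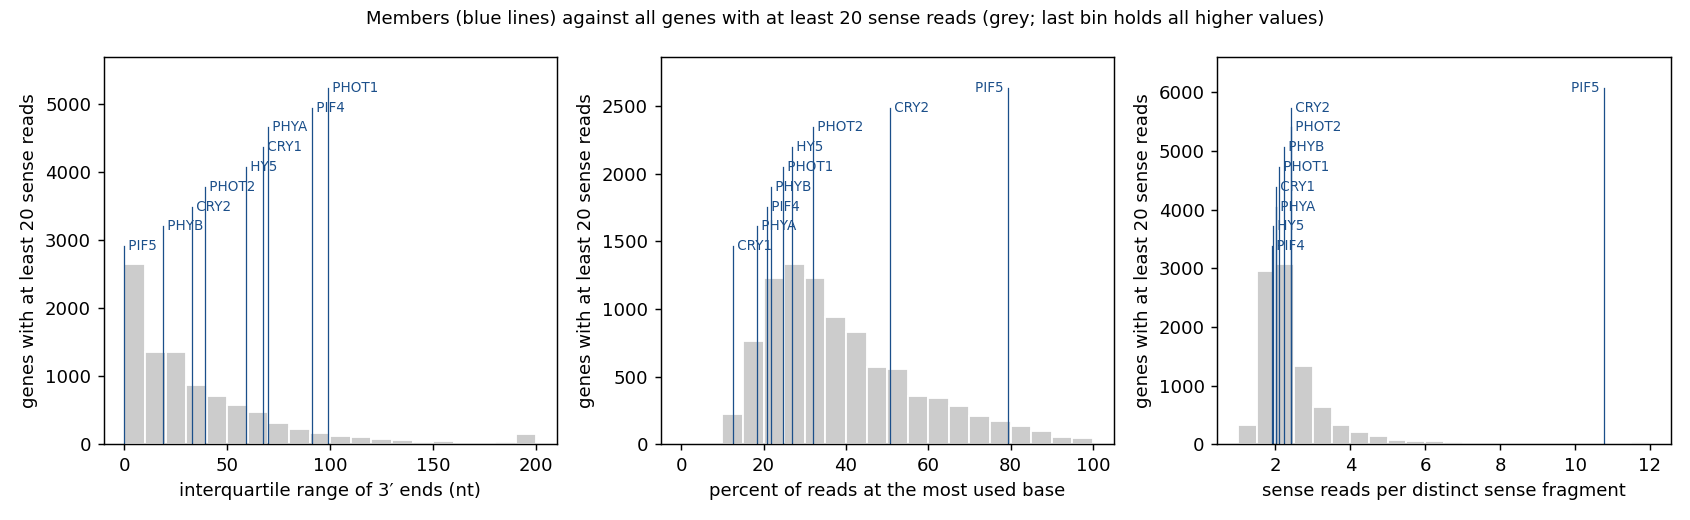
The 9 members with at least 20 sense reads (blue lines) over the distribution of the 9365 genes (grey bars) for the interquartile range of ends in nt, the percent of reads at the most used base and the sense reads per distinct sense fragment. PIF5 is at the far right of the last with 10.8, and PHOT1 has the widest ends with 99 nt.

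Pooled over the members, most reads ended after a T. The last base before the tail was T in 82.7% of the members' reads and in 68.3% without PIF5, against 52.6% of all reads. In PHYA (48.5%) and HY5 (40.5%) the share was below that of all reads, and in the other members it was above. AATAAA lay before 8.41% of the members' ends (19.4% without PIF5), against 9.80% of all, and AATAAA or a variant before 75.9% (55.1% without PIF5), against 42.4%. These pooled shares thus depended on PIF5. The interquartile range of ends had a median of 59 nt over the 9 members, against 24 nt over all genes.

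The placement of the members' reads was unique. The reference sequence of each of the 2328 placed reads occurred once in the 5 chromosomes, searched without mismatches on both strands, and near-identical places were not looked for. Mapping quality was nevertheless 0 or 1 for all reads of PHYA, PHOT2, HY5, PIF3 and PIF4, each of which has several annotated transcripts with shared 3′ sequence. Only 369 member reads reached a mapping quality of 10, and 339 of these were of CRY1. The first base of the read followed a G in 29.1% of the members' sense reads and in 22.5% without PIF5, against 19.7% of all.

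Other genes of light signalling were read in the same library. Of 33, 31 had a read and 19 had at least 20 (57.6%), with a median of 31 reads. The most reads were those of RPT2 (1167), a partner of the phototropins, UVR8 (453), the UV-B receptor, and BBX21 (161), a B-box factor that activates HY5. The fewest were those of PIL1 (1), a bHLH factor of the shade response, and of FKF1, a blue-light receptor of the flowering pathway, and AT3G44450, both with no read, which allows up to 3 reads. Among the relatives of the members, named here after their values were seen, PHYC had 3 reads, PHYD 11, PHYE 23, of which 14 were sense, and CRY3 40. PIF1 had 49 reads, close to the 48 of PIF4, PIF7 had 7, and HYH, the closest homologue of HY5, had 21. The 8 genes of the COP1, SPA and DET1 group, which act against HY5 in darkness, had from 7 to 69 reads, with COP1, also named after its value was seen, at 31. Of 11 clock genes, 10 had a read and 7 had at least 20, with a median of 37 reads. Among the clock genes the highest were CCA1 (85), LHY (77) and GI (70), and the lowest PRR5 (0), ELF3 (7) and PRR3 (10).

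**Figure D4:**
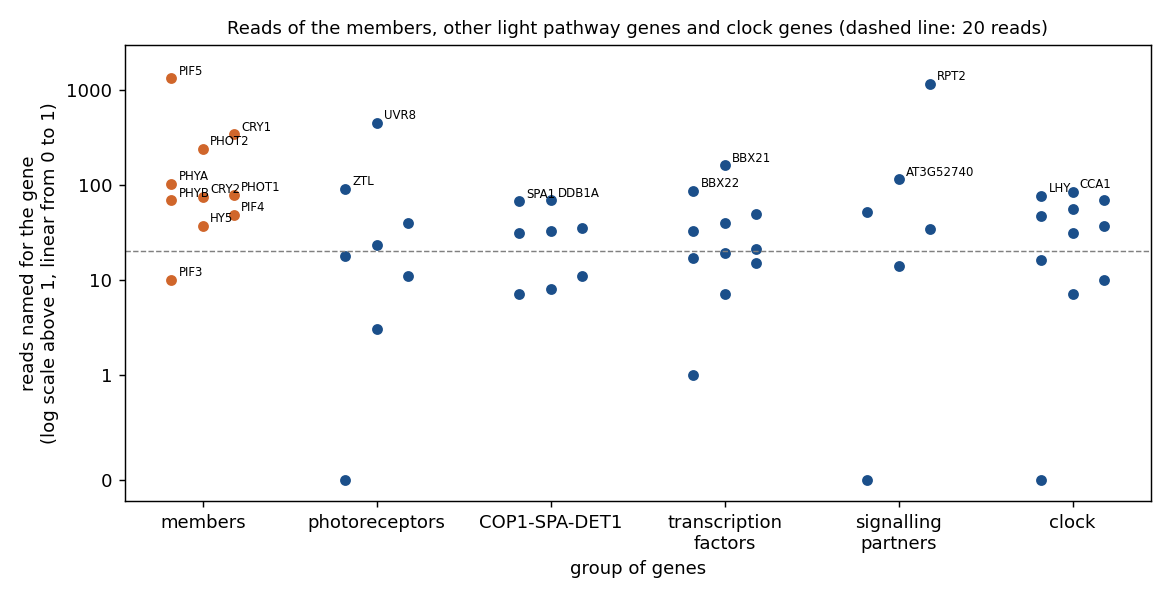
Reads of each of the 10 members (orange) and of the other light pathway and clock genes (blue) by group, on an axis that is logarithmic above 1 and linear from 0 to 1, with the dashed line at 20 reads. Of the members, only PIF3 lies below the line, and RPT2 with 1167 reads is the one other gene near the 1326 of PIF5.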

How the data were processed

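The library was made from Col seedling RNA cut in part by RNase T1, from which tailed fragments were captured and given an adaptor at the end of the tail. The authors kept reads with a recognizable 3′ adaptor, removed adaptor and tail and aligned trimmed reads with Bowtie2. The methods name TAIR10, and the deposited alignments are positions within transcripts with a mapping quality score from Bowtie2. Each read was placed on TAIR10.1 (RefSeq) through the exons of the transcript of the same name, and its last base was the 3′-end. No member read was lost, while 32879 others could not be placed, their transcript being missing from the annotation or too short to hold every read named for it. Poisson and Clopper-Pearson 95% intervals were exact, and intervals of ratios were conditional binomial. Where no read was found, the upper bound given is instead 3 reads, or 3 reads as a share of the reads searched. Intervals cover counting error only and treat each read as independent. Of all placed reads, 76.8% repeated an earlier fragment, so intervals on reads can be too narrow. The sequence before the PHOT1 ends is not reported here. Sites were ends joined within 24 nt, and hexamers were searched 10 to 35 nt before the end. All members were named, and of the light and clock genes those with the 3 highest and 3 lowest counts. Relatives of the members, COP1, RBCS1A and PYK10 are outside this rule. Members and lists were chosen with earlier results of these data known. Simulated sense reads were used to test the placement of ends, the distance past the stop codon, the main-site share and the 3′-UTR class. The other steps were not tested in this way. Scripts used scipy 1.17.1 and numpy 2.4.6 under Python 3.11.15, with matplotlib 3.10.9 for plots and pandas 2.3.3 for tables.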

Additional observations from a re-analysis of the deposited data

Results flagged for a closer look

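PHOT1 had 5 antisense reads, outside the sense reads used for its ends. They were copies of 1 fragment that ended at position 16818420 of chromosome 3, within the annotated 5′-UTR of a PHOT1 transcript, where no gene is annotated on the minus strand. Of the 10 reference bases after this end on the strand of the read, 5 were A, in a leading run of 3. The source of this fragment was not tested.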

How the results depend on the processing

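Of 44 values under other settings, 24 stayed within the spread set for their kind and 20 moved. A mapping quality of at least 10 moved most, since isoforms share their 3′ sequence. It left 369 reads and 1 member with at least 20 reads. The 364 sense reads among them, 339 of which were of CRY1, all ended in 3′-UTRs (100%), with an AATAAA share of 1.37% and an A-rich share of 0.549%. The median used 3′-UTR, then that of CRY1 alone, was 299 nt in place of 200 nt (distances in the named transcript). With identical reads on a transcript counted once, 895 reads, 13.1% with AATAAA and 2.81% before A-rich sequence were left, and with identical fragments on the genome counted once 594, 13.4% and 3.38%. Without PIF5 there were 1002 reads, of which 994 were sense. All of the sense reads ended in 3′-UTRs (100%), with 19.4% after AATAAA and 3.42% before A-rich sequence. The median main-site share of 98.7% was 54.0% with ends joined within 10 nt and 41.1% within 5 nt of the most used end. AATAAA or a single-base variant gave 75.9%, and at least 8 A in a row or 9 of 10 gave 0% (up to 0.129%). The settings for fragments, PIF5 and variants were chosen after seeing the data. No paired analysis was possible because the library was 1 of 1. Depth limits PIF3, HY5 and PIF4 most.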
